A study of Mus musculus with 6 samples.

Results

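The clustered histone genes are the replication-dependent genes for the linker histone H1 and the core histones H2A, H2B, H3 and H4, which lie together in a few chromosomal clusters. They were taken as all rows of the deposited expression table whose gene symbol starts with Hist1h, Hist2h, Hist3h or Hist4h. This gave 68 of the 22838 rows: 6 H1, 18 H2A, 19 H2B, 12 H3 and 13 H4 genes. By symbol, 54 belong to the Hist1 cluster on chromosome 13, 10 to Hist2 on chromosome 3, 3 to Hist3 on chromosome 11 and 1 to Hist4 on chromosome 6. RNA came from bone marrow of the tibia and femur in 3 Cbx2-/- mice and 3 wild-type mice, all 3 weeks old and of the 129/C57BL/6 strain. Cbx2-/- mice weighed 4.0 g and wild-type mice 12.3 g on average, per the labels, which do not describe the mutant allele. Cbx2 is a Polycomb protein, part of a complex that represses genes through chromatin, and the series asks about its role in bone-forming and fat-forming differentiation in postnatal long bones. Libraries were made with a stranded mRNA kit that selects poly(A) RNA, and the table gives 1 FPKM value (fragments normalised to the length of the transcript and to all mapped fragments of the library) per gene and library.

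Messenger RNA of these genes is unusual among animal transcripts in that it mostly ends in a stem-loop and not in a poly(A) tail. Stem-loop binding protein holds that structure, the U7 small nuclear ribonucleoprotein guides the cut just downstream of it, and the message is made in S phase and destroyed when DNA synthesis stops. Some clustered genes can also give a spliced or longer transcript with a poly(A) tail, which is known for differentiated and resting cells. A poly(A) library therefore samples the family only in part: a value reflects how much of the RNA carries a tail as well as how much RNA there is.

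The stem-loop was searched for on the coding strand of every GENCODE vM21 transcript (GRCm38, the assembly of mm10). The pattern was a 16-base hairpin: GG, 3 pyrimidines and T on the first arm, a 4-base loop of T, a base other than G, T and again a base other than G, and then A, 3 purines and CC. It stood in a transcript of 46 of the 68 clustered histone genes and of 34 of all other symbols, among 55341 symbols in all. No hairpin could be found where the annotated transcript stops short of it. Transcripts of Hist1h1b and Hist1h2ai, for example, end 0 bases after the stop codon, and that of Hist1h2ah 2 bases after it. Where found in the clustered genes, the hairpin began 21 (Hist2h2ac) to 58 bases (Hist2h2aa2) after the stop codon. Its commonest spelling, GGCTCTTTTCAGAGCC, was found in 26 of the genes, and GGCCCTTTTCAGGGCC was found in 7. The hairpins below, in capitals with 5 bases on either side as DNA of the coding strand, belong to the genes that the results turn on and show that members with very different levels share nearly the same end signal.
Hist1h1c, chr13:23739512-23739527, + strand: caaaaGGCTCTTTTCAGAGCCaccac
Hist3h2a, chr11:58955172-58955187, + strand: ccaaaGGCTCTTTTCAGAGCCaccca
Hist3h2ba, chr11:58949349-58949364, + strand: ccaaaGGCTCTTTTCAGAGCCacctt
Hist1h2bj, chr13:22043638-22043653, + strand: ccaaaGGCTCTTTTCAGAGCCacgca
Hist1h4i, chr13:22040966-22040981, - strand: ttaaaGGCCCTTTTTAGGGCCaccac
Hist2h4, chr3:96262939-96262954, - strand: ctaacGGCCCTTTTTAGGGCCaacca
Hist1h4d, chr13:23581950-23581965, + strand: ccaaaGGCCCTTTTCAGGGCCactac

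Coordinates are those of the 16 capitals. The deposited locus of 39 of the 46 genes ended 4 to 8 bases past the hairpin, where the tailless message ends. GENCODE, in contrast, gave 22 of the 46 a transcript that runs more than 150 bases past the hairpin, and 24 only transcripts that end sooner. The added length of these longer transcripts lies outside most of the deposited loci.

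Among the clustered histone genes, 58 had a value above 0 in at least 1 library, and 29 had one in all 6. The other 10 were at 0 in every library: Hist1h1t, Hist1h2aa, Hist1h2ao, Hist1h2ap, Hist1h2bq, Hist1h2br, Hist3h2bb-ps, Hist2h3c1, Hist2h3c2 and Hist1h4n. Hist1h1t is the linker histone of the testis, and Hist3h2bb-ps is named a pseudogene. Hist1h2ao with Hist1h2ap, Hist1h4m with Hist1h4n, Hist2h2aa1 with Hist2h2aa2, and Hist2h3c1 with Hist2h3c2 were deposited at the same coordinates in each pair, so their reads cannot be told apart. The deposited locus overlapped the GENCODE gene of the same symbol in 62 of the 68 genes. Hist1h2bq and Hist1h2br are not among these 62, so their zeros do not show that the genes of those symbols are silent. Of 408 values, 123 were 0 and 30 reached 10 FPKM. The level averaged over the 6 libraries reached 1 FPKM in 35 of the 68 genes, 10 FPKM in 5 and 50 FPKM in 2, beside a median level of 9.85 FPKM over all tested genes.

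A handful of genes held most of the signal. Hist1h1c, Hist1h2bc, Hist3h2ba, Hist3h2a, Hist1h4i and Hist1h4d together had 69.3% of the FPKM of the family, and Hist1h1c alone had 29.7%. Of the 22 genes with a long annotated end, 4 averaged at least 10 FPKM: Hist1h1c, Hist3h2ba, Hist3h2a and Hist1h4i, whose transcripts run 840, 169, 1643 and 330 bases past the hairpin. None of the 24 genes with a short end did, and the highest of them was Hist1h2bj at 7.2 FPKM, whose transcript runs 23 bases on. This contrast depends on the cut between long and short ends, and no other cut was tested. Hist3h2ba, with a mean of 21.0 FPKM, passes the cut only narrowly with its 169 bases. A cut above 169 bases would place it among the genes with a short end. The remaining gene above 10 FPKM, Hist1h2bc, has a spliced transcript of 2 exons in which no hairpin was found. The median level was 1.73 FPKM over genes with a long end, 0.849 FPKM over those with a short end and 0.984 FPKM over the 22 in which no hairpin was found. Many of those 22 have transcripts annotated only to about the stop codon, so they are not a group shown to lack the hairpin. Genes with a long end reached from 0 to 91.9 FPKM, and those with a short end from 0 to 7.2 FPKM, so the ranges overlap at the low side.

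**Figure D1:**
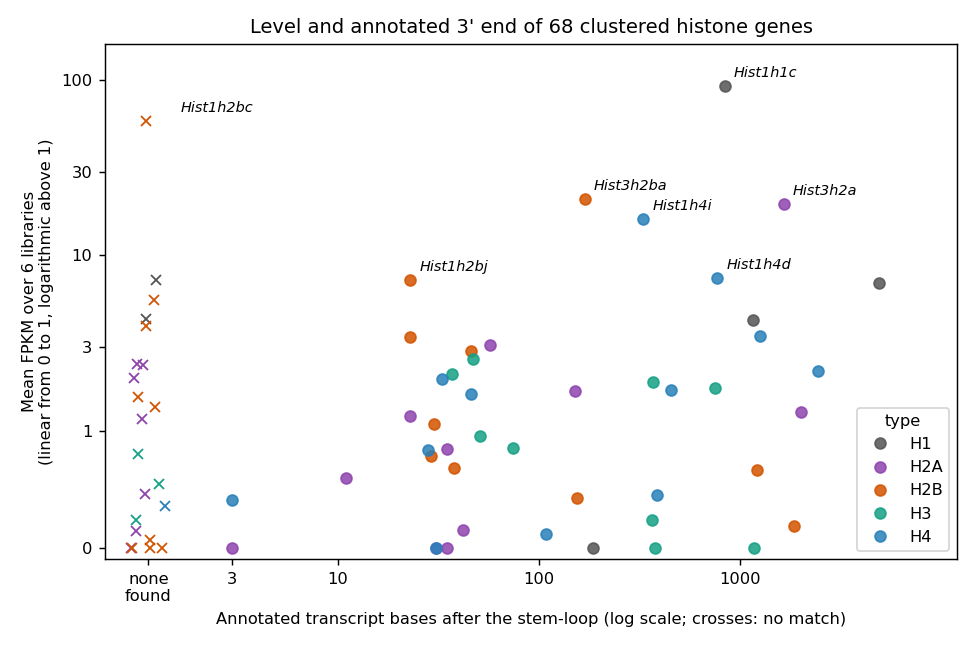
Mean FPKM over 6 libraries (y axis, linear to 1 and logarithmic above) against the annotated transcript bases after the stem-loop (x axis, log scale), with 1 point per clustered histone gene, coloured by type; crosses are genes in which no stem-loop was found. The genes above 10 FPKM lie among those with a long annotated end, except Hist1h2bc among the crosses. Of these, Hist3h2ba, at 169 bases, passes the cut for a long end only narrowly.

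**Figure D2:**
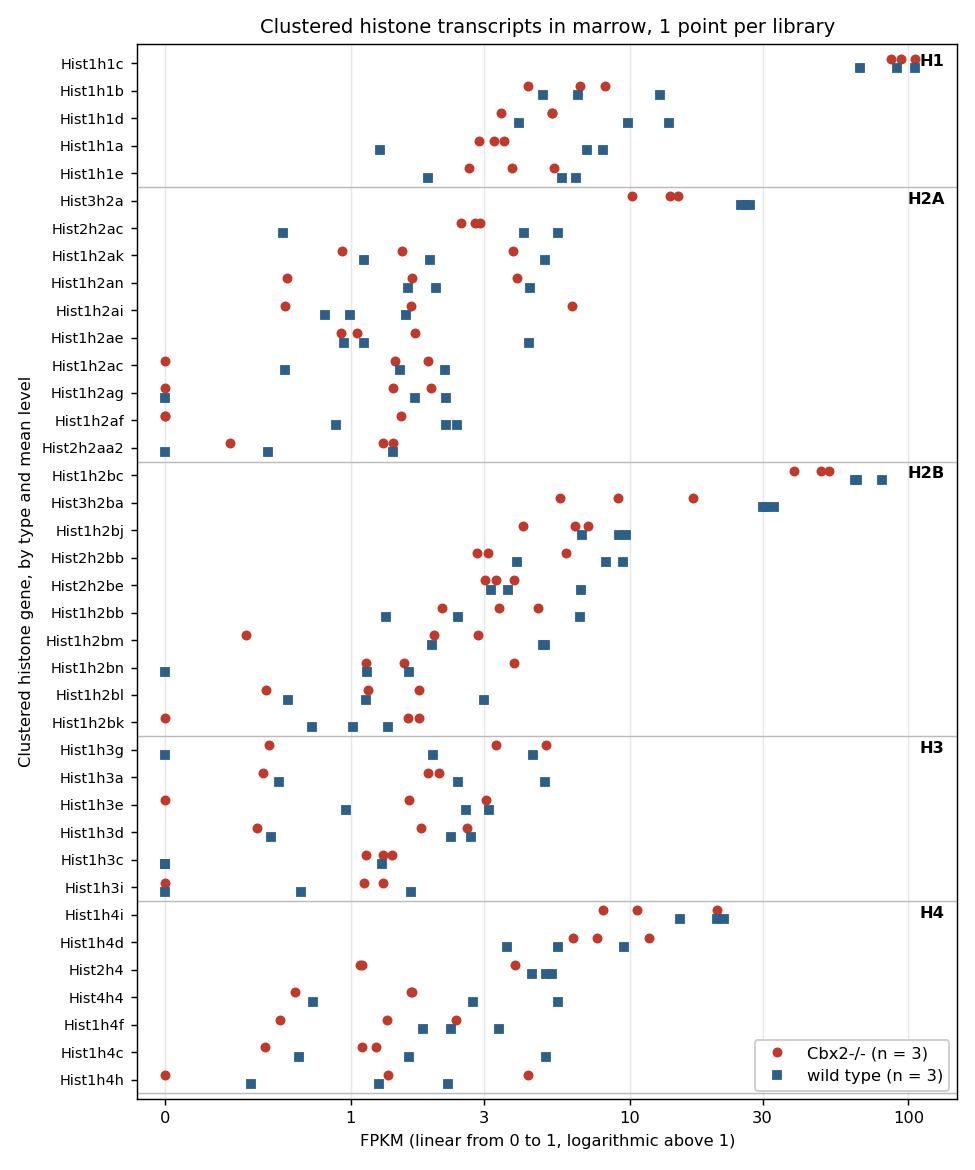
FPKM (x axis, linear to 1 and logarithmic above) of the 38 clustered histone genes that passed the filter on low values, in rows by type and mean level, with red circles for the 3 Cbx2-/- libraries and blue squares for the 3 wild-type libraries. Most genes lie between 0 and 10 FPKM and their genotypes overlap, while Hist3h2a and Hist3h2ba have clearly separate groups.

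Genotypes were compared with limma on log2(FPKM + 1), with p-values adjusted over the 12006 genes that reached 1 FPKM in 3 or more libraries. This filter kept 38 clustered histone genes: 5 H1, 10 H2A, 10 H2B, 6 H3 and 7 H4 genes. In none of the 38 did 1 genotype alone reach 1 FPKM. At an adjusted p under 0.05, 2 of the 38 were lower in Cbx2-/- marrow, Hist3h2a and Hist3h2ba, beside 8.31% of all tested genes. None of the 38 was higher by this limma test, beside 8.8% of all tested genes, and 1 had an unadjusted p under 0.05 in that direction, against 5 in the lower direction. For unadjusted p-values no share of all tested genes was counted, so these counts, here and in the lists below, are descriptive only. The Cbx2-/- and wild-type values did not overlap in 4 of the 38, all lower in Cbx2-/-: Hist3h2a, Hist3h2ba, Hist1h2bc and Hist2h4. Among all tested genes, 18.2% had separate groups with Cbx2-/- lower and 21.4% had them with Cbx2-/- higher. The shares of clustered histone genes that were called or had separate groups were thus no larger than the background in either direction.

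The difference on the log2(FPKM + 1) scale was negative in 28 of the 38 genes and positive in 10, or 73.7% negative beside 48.2% of all tested genes. Its median was -0.28, against 0.02 over all tested genes. By type, the median was -0.24 in H1, -0.25 in H2A, -0.38 in H2B, -0.04 in H3 and -0.61 in H4. The median over the 38 genes depended on single libraries: it was -0.01 without wild-type replicate 1, -0.17 without Cbx2-/- replicate 3 and -0.51 without wild-type replicate 2. Cbx2-/- replicate 3 was the lowest of its group in 22 of the 38 genes (57.9%, beside 48.4% of all tested genes). Wild-type replicate 2 was the lowest of its group in 17 (44.7%, beside 35.0%).

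**Figure D3:**
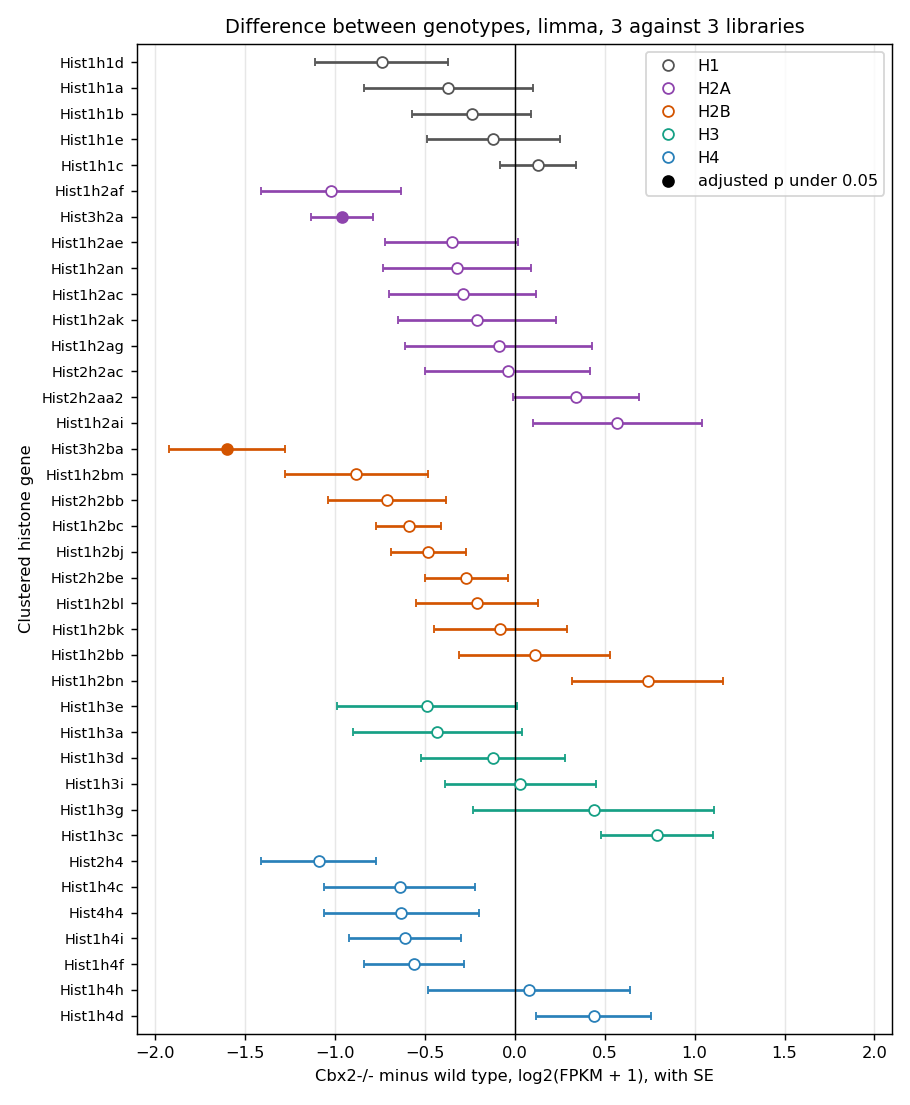
Difference in log2(FPKM + 1), Cbx2-/- minus wild type, with its SE (x axis), for the 38 tested clustered histone genes in rows by type; filled points have a limma adjusted p under 0.05. Below 0 lie 28 points and above it 10, and the 2 filled points, Hist3h2a and Hist3h2ba, both lie below.

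Both called genes belong to the small Hist3 cluster, on the + strand of chromosome 11. Hist3h2a encodes an H2A histone, the core histone that pairs with H2B in the nucleosome. Hist3h2a (chr11:58954685-58955192) had 14.0, 14.9 and 10.2 FPKM in the Cbx2-/- libraries and 26.1, 27.1 and 25.0 FPKM in the wild-type libraries. The groups were far apart, with little spread in wild type. Means were 13.1 ± 2.49 FPKM in Cbx2-/- and 26.1 ± 1.02 FPKM in wild type (SD, n = 3 each), 2.0-fold lower. The limma difference was -0.96 (SE 0.17, adjusted p = 0.00834), and it passed the threshold in all 16 alternative analyses, with adjusted p-values of 6.95e-05 to 0.0445. Of the 50-base stretches of its transcript within the deposited locus, 90.8% occur in no other gene of the annotation, leaving aside a long Trim17 transcript that GENCODE draws across the locus.

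Hist3h2ba encodes an H2B histone. Hist3h2ba (chr11:58948911-58949372) had 9.12, 16.9 and 5.62 FPKM in the Cbx2-/- libraries and 33.1, 30.8 and 30.2 FPKM in the wild-type libraries. Every Cbx2-/- value was below every wild-type value, with a wider spread in Cbx2-/- marrow. Means were 10.6 ± 5.8 FPKM in Cbx2-/- and 31.3 ± 1.55 FPKM in wild type (SD, n = 3 each), 2.97-fold lower. The limma difference was -1.60 (SE 0.32, adjusted p = 0.014). The call was lost without Cbx2-/- replicate 1 (adjusted p = 0.0503), wild-type replicate 1 (0.0614), wild-type replicate 2 (0.0569) or wild-type replicate 3 (0.0575), while the difference stayed between -2.29 and -1.26 in all 16 alternatives. Its transcript is less distinct, with 69.1% of 50-base stretches within the deposited locus found in no other gene. The rest is shared with the neighbouring pseudogene Hist3h2bb-ps, which was at 0 in every library.

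The 2 Hist3 promoters are shown because both called genes belong to this cluster. They are the 150 bases before the RefSeq start on GRCm38.p6, + strand, for Hist3h2ba at chr11:58948761-58948910 and for Hist3h2a at chr11:58954535-58954684. Capitals mark the TATA box (TATAAA) on the strand shown, and the CCAAT box (CCAAT) and the octamer (ATTTGCAT) on either strand. None of these matches overlap each other here.
Hist3h2ba: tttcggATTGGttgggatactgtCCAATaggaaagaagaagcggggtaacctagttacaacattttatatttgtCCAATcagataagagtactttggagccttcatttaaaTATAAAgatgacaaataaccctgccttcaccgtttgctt
Hist3h2a: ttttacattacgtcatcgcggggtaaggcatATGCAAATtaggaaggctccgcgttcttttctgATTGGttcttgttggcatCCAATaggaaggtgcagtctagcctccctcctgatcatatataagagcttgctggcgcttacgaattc

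Both promoters hold the CCAAT box more than once, and they differ in that Hist3h2ba has the exact TATAAA letters and Hist3h2a the octamer. Only exact letters were searched, so near spellings, such as tatataa in Hist3h2a, were not counted and no lack of a TATA box is shown. The CCAAT box stood in 82.3% of 62 clustered histone promoters in RefSeq, which belong to 61 of the 68 genes, and in 24.5% of all 32851 promoters of the same length. It was present in 17 of 17 H2A and 17 of 17 H2B promoters but in 3 of 12 H4 promoters. TATAAA, searched on the strand of the gene only, was present in 35.5% of clustered histone promoters and 4.84% of all. The octamer, ATTTGCAT, was present in 17.7% of clustered histone promoters and 1.0% of all, and it was found in H2A and H2B promoters only.

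**Figure D4:**
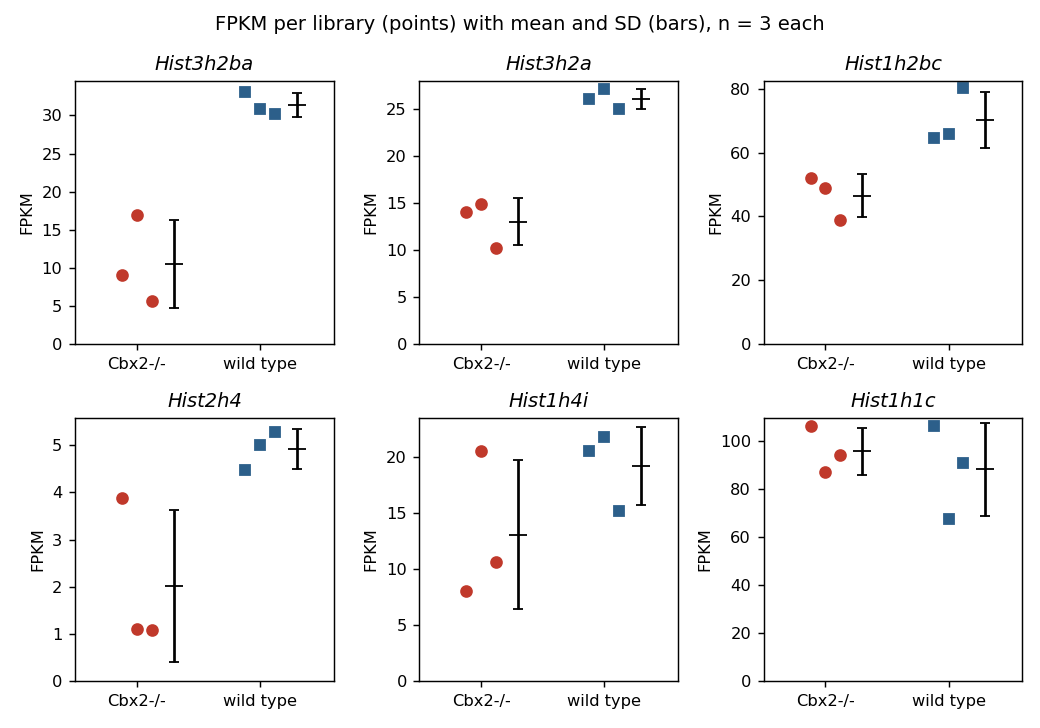
FPKM (y axes, from 0) of 6 clustered histone genes in the Cbx2-/- libraries (red circles) and the wild-type libraries (blue squares), with mean and SD as bars (n = 3 each). Hist3h2ba, Hist3h2a, Hist1h2bc and Hist2h4 have separate groups with Cbx2-/- lower, while Hist1h4i and Hist1h1c overlap.

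H1 linker histones bind the DNA between nucleosomes, and Hist1h1c, which encodes H1.2, was the most abundant clustered histone transcript. Hist1h1c had 106, 86.8 and 94.0 FPKM in the Cbx2-/- libraries and 106, 67.3 and 90.8 FPKM in the wild-type libraries. The groups overlapped throughout, with means of 95.5 ± 9.54 FPKM in Cbx2-/- and 88.2 ± 19.7 FPKM in wild type (SD, n = 3 each). The limma difference was 0.13 (95% interval -0.34 to 0.61, adjusted p = 0.715). The other read H1 genes lay between 1.27 and 13.8 FPKM in every library. Hist1h1d had 3.46, 5.25 and 5.28 FPKM in the Cbx2-/- libraries and 13.8, 4.02 and 9.9 FPKM in the wild-type libraries, an overlap made by wild-type replicate 2 (difference -0.74, SE 0.37, limma adjusted p = 0.212). Hist1h1a, Hist1h1b and Hist1h1e also overlapped, with differences of -0.37, -0.24 and -0.12 and adjusted p-values of 0.645, 0.675 and 0.862.

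H2B transcripts were the most abundant of the core histones by summed FPKM. Hist1h2bc, with the spliced transcript, had 51.9, 48.8 and 38.9 FPKM in the Cbx2-/- libraries and 64.6, 65.7 and 80.3 FPKM in the wild-type libraries. The groups did not overlap, with means of 46.6 ± 6.78 FPKM in Cbx2-/- and 70.2 ± 8.77 FPKM in wild type (SD, n = 3 each). The difference of -0.59 (SE 0.18) just missed the threshold (limma adjusted p = 0.0573) and passed it in 7 of the 16 alternatives. Hist1h2bj had 7.09, 6.38 and 4.14 FPKM in the Cbx2-/- libraries and 9.69, 6.73 and 9.15 FPKM in the wild-type libraries, with an overlap of a single pair of values (difference -0.48, SE 0.21, adjusted p = 0.154). Hist2h2bb had 2.84, 3.11 and 5.93 FPKM in Cbx2-/- and 9.51, 3.95 and 8.23 FPKM in wild type (difference -0.71, SE 0.33, adjusted p = 0.176). Hist2h2be, whose human counterpart is known to give a tailed message, overlapped between the genotypes at 3.31, 3.86 and 3.03 FPKM in Cbx2-/- and 6.69, 3.65 and 3.18 FPKM in wild type (adjusted p = 0.466). The other 5 tested H2B genes, Hist1h2bb, Hist1h2bk, Hist1h2bl, Hist1h2bm and Hist1h2bn, averaged 1.09 to 3.44 FPKM and overlapped, with differences of -0.88 (Hist1h2bm) to 0.74 (Hist1h2bn).

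Among H2A genes, Hist3h2a held 53.0% of the summed FPKM. The other 9 tested H2A genes averaged 0.842 FPKM (Hist2h2aa2) to 3.09 FPKM (Hist2h2ac), and all overlapped between the genotypes. Hist1h2af was the lowest of them in relative terms, with 0, 1.51 and 0 FPKM in the Cbx2-/- libraries and 2.4, 0.923 and 2.2 FPKM in the wild-type libraries (difference -1.02, SE 0.39, limma adjusted p = 0.112). Hist1h2ai went the other way, at 6.2, 1.64 and 0.648 FPKM in Cbx2-/- and 0.864, 0.997 and 1.58 FPKM in wild type, which rests on 1 library (difference 0.57, SE 0.47, adjusted p = 0.461). Hist1h2ac, Hist1h2ae, Hist1h2ag, Hist1h2ak, Hist1h2an and Hist2h2ac had differences of -0.35 to -0.04. Hist2h2aa2 had a difference of 0.34, and no 50-base stretch of its transcript within the deposited locus is distinct from other genes.

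H4 is the core histone that pairs with H3, and Hist1h4i was its leading transcript here. Hist1h4i had 8.0, 20.6 and 10.6 FPKM in the Cbx2-/- libraries and 20.6, 21.8 and 15.2 FPKM in the wild-type libraries. Cbx2-/- replicate 2 sat within the wild-type range and the others below it (difference -0.61, SE 0.31, limma adjusted p = 0.224). Hist2h4 had 3.88, 1.10 and 1.08 FPKM in Cbx2-/- and 4.47, 5.01 and 5.29 FPKM in wild type, with separate groups and a difference of -1.09 (SE 0.32) that just missed the threshold (adjusted p = 0.0509). Hist1h4d was not lower, at 11.7, 7.65 and 6.27 FPKM in Cbx2-/- and 9.54, 3.63 and 5.55 FPKM in wild type (difference 0.44, SE 0.32, adjusted p = 0.387). Hist1h4c, Hist1h4f and Hist4h4 had differences of -0.64, -0.56 and -0.63 and Hist1h4h one of 0.08, all with overlapping groups. Hist4h4, the single gene of its cluster, averaged 1.33 ± 0.547 FPKM in Cbx2-/- and 3.02 ± 2.38 FPKM in wild type (SD, n = 3 each).

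H3 transcripts were the least read core type, and none of the 6 tested genes had separate groups. Hist1h3g, the highest, had 3.33, 5.03 and 0.559 FPKM in the Cbx2-/- libraries and 4.51, 0 and 1.98 FPKM in the wild-type libraries (limma difference 0.44, SE 0.67, adjusted p = 0.714). Hist1h3c, at 1.31, 1.41 and 1.13 FPKM in Cbx2-/- and 0, 0 and 1.29 FPKM in wild type, had the largest positive difference of the family (0.79, SE 0.31, adjusted p = 0.127). Its wild-type values are thus either 0 or as high as in Cbx2-/-. Hist1h3a, Hist1h3d, Hist1h3e and Hist1h3i had differences of -0.49 to 0.03.

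A further 20 genes were read but did not pass the filter: 5 H2A, 6 H2B, 4 H3 and 5 H4 genes. Their means over the 6 libraries reached 0.591 FPKM in H2A (Hist1h2ab), 0.786 FPKM in H2B (Hist1h2bf), 0.955 FPKM in H3 (Hist1h3b) and 0.833 FPKM in H4 (Hist1h4b). Of the 20, 18 averaged at least 0.1 FPKM, and no single library exceeded 2.67 FPKM. Only Hist2h2aa1 had separate groups, at values under 0.0001 FPKM in Cbx2-/- and 0 in wild type, at the locus it shares with Hist2h2aa2 (two-sided exact permutation p = 0.1, the smallest that 3 against 3 allows).

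Summed over all 68 genes, FPKM came to 289, 283 and 231 in the Cbx2-/- libraries and 403, 288 and 362 in the wild-type libraries. The groups overlapped, since Cbx2-/- replicate 1 (289) was above wild-type replicate 2 (288), and the sums made up 0.0391% of all FPKM in Cbx2-/- and 0.0506% in wild type. H1 summed to 124, 105 and 112 FPKM in Cbx2-/- and 146, 79.4 and 122 FPKM in wild type, which overlap. H2A summed to 36.0, 30.3 and 20.9 FPKM in Cbx2-/- and 47.6, 40.0 and 46.9 FPKM in wild type, a ratio of 0.648 that was 0.854 without Hist3h2a. H2A without Hist3h2a overlapped between the genotypes. H2B did not overlap with or without its leading gene, Hist1h2bc, but both of these H2B sums hold the called Hist3h2ba. H2B without both genes was not summed, so the 2 types are not compared on the same footing. H2B summed to 83.5, 92.6 and 69.9 FPKM in Cbx2-/- and 141, 122 and 146 FPKM in wild type, a ratio of 0.601 that was 0.536 without Hist1h2bc. H3 summed to 15.7, 14.5 and 4.5 FPKM in Cbx2-/- and 19.7, 7.59 and 9.51 FPKM in wild type, a ratio of 0.943 that was 1.35 without wild-type replicate 1 and 0.367 with Cbx2-/- replicate 3 alone. H4 summed to 29.0, 41.0 and 24.3 FPKM in Cbx2-/- and 48.8, 38.7 and 37.9 FPKM in wild type. H3 and H4 sums overlapped between the genotypes. In whole marrow, fewer cells of a type and less RNA per cell cannot be told apart, and neither can less RNA and a smaller tailed share.

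Values of the low members have coarse steps and shared reads. Among the 28 clustered histone genes that were at 0 in some libraries and above 0 in others, the smallest value above 0 had a median of 0.594 FPKM (quartiles 0.459 and 0.746), against 0.0495 FPKM over all 3304 such genes. A level of 1 to 2 FPKM in a gene this short is therefore only a few times the smallest value seen. The near-identical coding sequences of the family also share reads: over the 62 genes with a value, a median of 45.1% of 50-base stretches within the locus were found in no other gene, and 16 genes had under 25%. Hist1h1a, Hist1h1b, Hist2h2bb, Hist2h2be and Hist4h4 were fully distinct among the genes read, leaving aside Gm42743, which GENCODE draws at the Hist2h2bb locus.

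Genes that make, carry and use histones were read beside them. Of 23 tested genes of histone pre-mRNA processing, 2 were lower in Cbx2-/- marrow and none was higher by limma, where 7 had an unadjusted p under 0.05. The count of 2 lower genes is near the share of all tested genes called lower, 8.31%. Slbp, the stem-loop binding protein, had 78.7, 92.5 and 40.2 FPKM in the Cbx2-/- libraries and 156, 166 and 152 FPKM in the wild-type libraries. It was 2.24-fold lower with separate groups (difference -1.24, SE 0.30, limma adjusted p = 0.0272). Eri1, an exonuclease that trims the end of histone messages, was 1.62-fold lower (difference -0.63, SE 0.17, adjusted p = 0.0379). Casp8ap2 (FLASH) and Npat, both of the histone locus body, had differences of -0.35 (adjusted p = 0.0854) and -0.24 (0.29). Lsm10 and Lsm11, subunits of the U7 particle, had differences of -0.01 (0.979) and 0.10 (0.661). Ncbp2, of the cap-binding complex, had a difference of -0.45 (0.106). Zfp473 was under the filter and was not tested. It had 0.276, 0.075 and 0.28 FPKM in the Cbx2-/- libraries and 0.71, 0.943 and 0.76 FPKM in the wild-type libraries, which do not overlap.

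Histone variants made outside S phase come from genes elsewhere in the genome, mostly with ordinary poly(A) tails. Of 11 such genes, 1 was lower and none was higher by limma (3 with an unadjusted p under 0.05), also near the 8.31% of all tested genes called lower. H3f3a, for H3.3, had 415, 560 and 355 FPKM in Cbx2-/- and 774, 918 and 720 FPKM in wild type, 1.81-fold lower (difference -0.88, SE 0.24, adjusted p = 0.0414). H2afv had a difference of -0.89 (0.0608), H2afx of -1.06 (0.112) and H1fx of -0.64 (0.16). H2afx, which is known to give both a stem-loop and a tailed message, at 308, 337 and 111 FPKM in Cbx2-/- and 484, 434 and 506 FPKM in wild type, was lowest in Cbx2-/- replicate 3. Of 22 histone chaperones and acetyltransferases, 2 were lower and none was higher (6 with an unadjusted p under 0.05), again near 8.31%. These were Hjurp, the chaperone of the centromeric H3 variant (-0.51, adjusted p = 0.0276), and Asf1b, a chaperone of H3 with H4 (-1.09, 0.0484). Dnajc9, a co-chaperone of H3 with H4, and Rbbp4, a subunit of chromatin assembly factor, had differences of -0.89 (0.0512) and -0.73 (0.0818).

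Cell-cycle genes were read in the same fit. Of 28 S phase genes, 3 were lower and none was higher by limma (16 with an unadjusted p under 0.05): Ccne2 (cyclin E2, -1.30, adjusted p = 0.0105), Slbp and Ccna2 (cyclin A2, -1.19, 0.0493). This count, too, is close to the 8.31% of all tested genes. Pola1, of the replicative primase complex, had a difference of -0.92 (0.0565). S phase genes summed to 1650, 2090 and 694 FPKM in Cbx2-/- and 2880, 2440 and 2610 FPKM in wild type, lowest in Cbx2-/- replicate 3. Of 20 genes of G2 and mitosis, 10 were lower and none was higher (14 with an unadjusted p under 0.05), beside 8.31% lower among all tested genes. Mki67, a marker of cycling cells, had 58.9, 59.3 and 59.2 FPKM in Cbx2-/- and 122, 116 and 131 FPKM in wild type, 2.08-fold lower (adjusted p = 0.00377), and Cenpf, Cenpe and Kif23 had adjusted p-values of 0.00246, 0.0122 and 0.0136. The median difference was -0.80 over S phase genes and -0.78 over G2 and mitosis genes, beside -0.28 over the clustered histone genes. These medians are not directly comparable, since log2(FPKM + 1) understates differences of low genes. Only 10 clustered histone genes averaged at least 5 FPKM, whereas most S phase and mitosis genes lay well above that level.

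**Figure D5:**
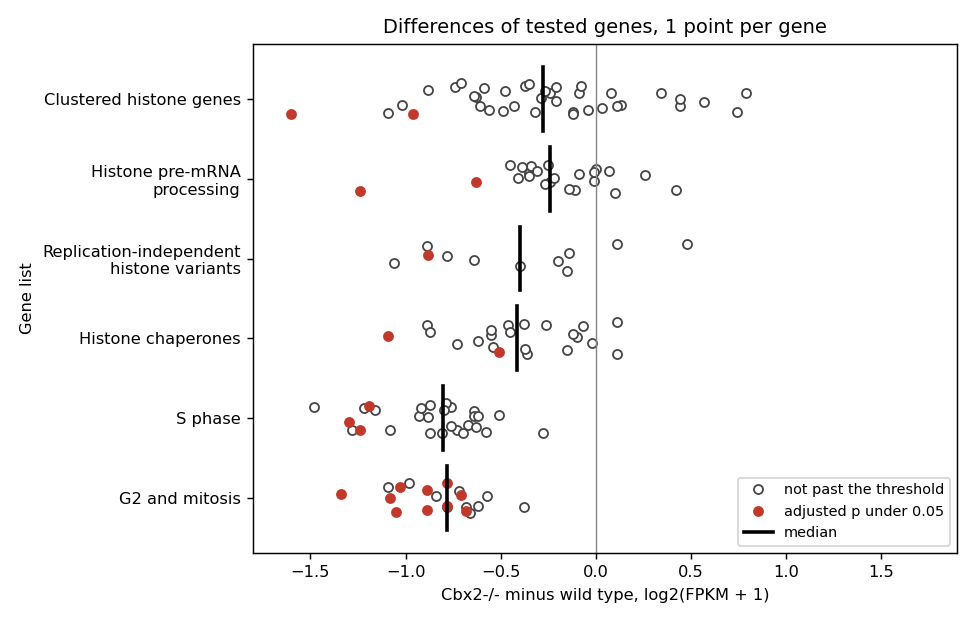
Difference in log2(FPKM + 1), Cbx2-/- minus wild type (x axis), of each tested gene in 6 lists (rows); filled points have a limma adjusted p under 0.05 and the bar is the list's median. The S phase and mitosis lists lie wholly below 0, with medians of -0.80 and -0.78, while the clustered histone genes spread from -1.60 to 0.79. Differences of low genes, among them most clustered histone genes, are understated on this scale.

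Markers of several marrow cell types moved with genotype, and their part in the histone differences was not tested. All 12 B cell precursor markers were lower, with summed levels of 113 to 220 FPKM in Cbx2-/- and 1030 to 1300 FPKM in wild type, led by Vpreb3 and Cd79b. Of 11 erythroid markers, 8 were lower, with sums of 1520 to 2160 FPKM in Cbx2-/- and 3380 to 4050 FPKM in wild type. Slc4a1 passed the test and Alas2 did not (adjusted p = 0.467). Of 10 markers of maturing neutrophils, 3 were higher, with sums of 55200 to 84500 FPKM in Cbx2-/- and 38200 to 43300 FPKM in wild type, most of it S100a8 and S100a9. Of 7 primary granule markers, 3 were higher, with sums of 2360 to 5080 FPKM in Cbx2-/- and 1940 to 2140 FPKM in wild type. None of 10 megakaryocyte markers was called by limma (3 with an unadjusted p under 0.05), with sums of 793 to 1360 FPKM in Cbx2-/- and 1140 to 2230 FPKM in wild type. Skeletal muscle transcripts summed to 355, 411 and 12.2 FPKM in Cbx2-/- and 21.2 to 28.0 FPKM in wild type, so 2 Cbx2-/- libraries carry them, led by Acta1. None of the 5 tested muscle markers was called by limma (4 with an unadjusted p under 0.05). With those 2 libraries left out, the differences of Hist3h2a and Hist3h2ba were -1.27 and -2.29. This sets 1 Cbx2-/- library, replicate 3, against 3 wild-type libraries. Replicate 3 had the lowest value of both genes (10.2 and 5.62 FPKM), so this comparison cannot tell whether the muscle transcripts matter.

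Across the series, summed FPKM ran from 599601 to 741192 per library, and 16140 to 16574 genes were above 0. The number of reads is in none of the sources used here, so the depth is unknown. Cbx2 itself had 2.11, 1.87 and 1.88 FPKM in Cbx2-/- and 2.90, 3.83 and 2.75 FPKM in wild type (difference -0.49, limma adjusted p = 0.0558). Which part of the gene the mutation removes is not in the labels, so this level does not check the genotype.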

How the data were processed

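Per the submitters' processing notes, reads were handled with FastQC 0.11.5, TopHat2 2.1.0 and Cufflinks 2.2.1 on mm10; no source used here states settings, strand handling or gene annotation. The authors deposited 1 table of FPKM values, normalised to transcript length and mapped fragments, and no read counts were used. Libraries were 50-base single-end, per the labels' protocols. Values were analysed as log2(FPKM + 1), so differences of low genes are understated. The test was limma 3.58.1 under R 4.3.3, two-sided, with a mean-variance trend and neither block nor covariate, for the 12006 genes that reached 1 FPKM in 3 or more libraries. P-values were adjusted by Benjamini-Hochberg over these genes, and 0.05 was the threshold. Folds are ratios of mean FPKM. The labels give 3 animals per genotype by number only, so p-values measure the spread between these animals. Every tested clustered histone gene is named. Of each related list, up to 4 genes with the lowest adjusted p are named with Slbp, Npat, Casp8ap2, Lsm10 and Lsm11, and of marker lists at most 2 of the most abundant. The members and lists were chosen with earlier results of these data known. Deposited loci were read as 0-based starts and are given counted from 1. Promoters are from RefSeq (GRCm38.p6) and hairpins from GENCODE vM21. On data simulated with the spread of this comparison (12006 genes, 200 changed), 61% of changes of 1 log2 unit and 91% of 2 log2 units were recovered, with 10 of 162 calls false. The changed genes were drawn at random from all tested genes and the changes set on the log2(FPKM + 1) scale. These rates therefore need not hold for low genes, among them most clustered histone genes. Figures were drawn with matplotlib 3.10.9.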

Additional observations from a re-analysis of the deposited data

How the results depend on the processing

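The analysis was repeated with other pseudocounts, filters, scalings and limma settings and with each library left out, and, chosen after seeing the data, without both Cbx2-/- libraries that carry muscle transcripts, which leaves 1 library whose spread is assumed to be that of the others. Against 2 clustered histone genes lower in Cbx2-/-, 4 were lower with upper-quartile scaling, 9 with array weights, 10 without the muscle-bearing libraries and 1 to 5 with a library left out; against 0 higher, 3 were higher with array weights and 0 to 1 with a library left out. Over all tested genes, 1057 were higher and 998 lower; array weights gave 3278 and 2684, leaving out the muscle-bearing libraries 2047 and 2714, and leaving out 1 library 367 to 2069 and 475 to 1719. Each count of clustered histone genes here is out of 38. Of all tested genes, 8.3% were lower with upper-quartile scaling. With a library left out, 3.96% to 14.3% were lower and 3.06% to 17.2% higher. Array weights made 22.4% lower and 27.3% higher. The 9 lower clustered histone genes are near that background, and the 3 higher ones are under it. Counts without the muscle-bearing libraries rest on 1 Cbx2-/- library and are descriptive only. Deviations of same-numbered libraries from their group means were only weakly correlated (0.194, -0.179 and -0.103). With 3 libraries per genotype, this cannot exclude that the numbers pair animals, and the main fit assumed no pairing. With a replicate block, 634 genes were higher and 734 lower, with Hist3h2a and Hist3h2ba called as before. Without its leading gene, the H1 ratio of summed FPKM was 0.663 against 0.983 and the H2A ratio 0.854 against 0.648; without the muscle-bearing libraries the H2A ratio was 0.466 and the H3 ratio 0.367, against 0.943. The H3 ratio was 1.23 without Cbx2-/- replicate 3 and 1.35 without wild-type replicate 1. Hist1h1b, at -0.24, was 0.02 with array weights and -0.51 to 0.11 with a library left out; Hist1h1c, at 0.13, was -0.05 without wild-type replicate 2 and at most 0.28. The cause of these shifts was not tested. Over 14 single genes and 16 alternatives, 193 values kept direction and side of the threshold, 24 passed it anew, 4 lost it and 3 changed sign. Scaling moved the median of all genes by under 0.1 on the log2 scale. Unknown depth and shared sequence limit all genes under a few FPKM.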
